A study of Mus musculus with 16 samples.

Results

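The genes described here are 51 genes of DNA replication and mitosis, measured in secretory-labelled and unlabelled epithelial cells of the mouse colon. They were chosen by name, as 27 genes that act in S phase and 24 that act in mitosis, from the 45513 genes counted. All 51 were matched to 1 gene each, and all 51 had enough counts to be among the 15841 genes tested.

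The 16 libraries came from 8 mice of the homozygous Atoh1(WT)CreERT2 line, heterozygous for the Rosa26tdTom reporter, on a C57BL/6 background. The animals were males and females of 8 to 16 weeks of age. In this line CreERT2 lies downstream of the normal Atoh1 coding sequence, so that tamoxifen starts recombination only in cells that express Atoh1, the transcription factor of secretory fate, and tdTom then stays on in those cells and their progeny. Every mouse received 1 mg of tamoxifen daily for 3 days, a schedule chosen to label the secretory lineages as fully as possible. From crypt-enriched fractions of each colon, live EpCAM+ cells were sorted by tdTom into a positive and a negative population. Both therefore share the inherited genotype of the animal and its treatment, and the sort separates them by recombination of the reporter. The 2 libraries of a mouse share its number, and the mice are called mouse 1 to mouse 8. By their numbers the mice form 3 series (1 to 3, 4 alone, and 5 to 8), which the labels do not describe as batches.

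Total counts were 16482530 to 24218367 in tdTom+ and 18318172 to 45791503 in tdTom− libraries, where mouse 4 was the largest and no other exceeded 20668605. The sort went with its labels. Atoh1 had 132 ± 19.3 CPM (counts per 1e6 counts, SD, n = 8) with the tdTom label and 5.70 ± 1.67 CPM (n = 8) without it, all 8 of 8 goblet cell markers were higher in tdTom+ cells, and all 7 of 7 absorptive cell markers were lower. The tdTom− population is a mixture, in which absorptive, enteroendocrine and most tuft cell markers were higher than in tdTom+ cells. The share of mitochondrial counts was 2.23% to 6.92% in tdTom+ and 3.74% to 9.97% in tdTom− libraries and was lower in tdTom+ cells of 8 of 8 mice, and its part in the results was not tested.

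A cell that divides first licenses its replication origins by loading the MCM helicase, then copies its DNA in S phase at forks built around polymerases, the PCNA clamp and a supply of deoxynucleotides, and in mitosis separates the copies on a spindle under the control of cyclin-dependent and other kinases. The genes of both phases are transcribed in waves. E2F factors act mainly on the S phase genes, and the MuvB complex with B-MYB (Mybl2) and FOXM1 acts on the mitosis genes through an element called the cell cycle genes homology region (CHR). In the colon crypt, dividing cells lie in the lower part, as stem cells and transit-amplifying progenitors, and they stop dividing as they mature into absorptive or secretory cells.

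Promoter windows of 300 bases, from 250 bases before to 50 bases after the RefSeq transcription start (GRCm38.p6), were at hand for 43 of the 51 genes, in 49 windows because some genes have several starts. These were searched on both strands for the CHR, as TTTGAA, for the CCAAT box, as CCAAT, and for an E2F site, as TTTNNCGC in which each N is C or G. Of the 21 windows of mitosis genes, 16 held a CHR (76.2%), against 3 of the 28 windows of S phase genes (10.7%) and 17.9% of all 32851 windows of the genome. An E2F site was in 11 of 28 S phase windows (39.3%), in 1 of 21 mitosis windows (4.76%) and in 2.26% of all windows. The CCAAT box was in 18 of 21 mitosis windows (85.7%), in 17 of 28 S phase windows (60.7%) and in 37.4% of all. A match is a description of the letters and does not show that a factor binds there. In 1 window, that of Mcm7, a CCAAT box and an E2F site shared 1 base, and no other matches to different motifs overlapped.

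Counted by gene, a CHR was in at least 1 window of 15 of the 20 mitosis genes with a window (75%). The same held for 3 of 23 S phase genes (13%) and for 20.2% of all 27025 genes with a window. Birc5, Bub1, Ccnb1, Cenpe and Nusap1 had no TTTGAA on either strand, and other forms of the CHR were not searched. An E2F site was in at least 1 window of 11 of 23 S phase genes (47.8%), against 2.6% of all genes with a window. The single mitosis gene with one was Cdk1. The stretches printed next run from 100 bases before to 50 bases after the start, 5′ to 3′ on the strand of the gene, with every match to one of the motifs, on either strand, in capitals. The 4 mitosis genes are Plk1 and Kif23, which had the largest differences of that group, Cdc20, with a CHR between a pair of CCAAT boxes, and Cdk1, the mitosis gene that did not pass the test.
Plk1, chr7:122159335-122159484, plus strand: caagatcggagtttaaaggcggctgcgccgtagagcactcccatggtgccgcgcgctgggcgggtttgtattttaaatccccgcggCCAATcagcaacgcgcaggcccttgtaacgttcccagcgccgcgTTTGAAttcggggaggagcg
Kif23, chr9:61946750-61946899, minus strand: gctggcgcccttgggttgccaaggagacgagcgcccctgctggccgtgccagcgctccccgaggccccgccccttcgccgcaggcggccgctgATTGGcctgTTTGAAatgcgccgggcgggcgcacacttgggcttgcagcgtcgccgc
Cdc20, chr4:118437294-118437443, minus strand: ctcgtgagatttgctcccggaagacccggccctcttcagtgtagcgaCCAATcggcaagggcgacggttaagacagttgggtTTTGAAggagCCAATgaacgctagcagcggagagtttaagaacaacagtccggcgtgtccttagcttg
Cdk1, chr10:69352863-69353012, minus strand: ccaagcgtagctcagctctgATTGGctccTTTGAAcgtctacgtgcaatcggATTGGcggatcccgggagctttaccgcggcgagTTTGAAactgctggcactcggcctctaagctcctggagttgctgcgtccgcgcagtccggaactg

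The 4 S phase genes are Hells and Mcm3, with E2F sites and among the largest differences of that group, and Rfc3 and Slbp, whose levels did not pass the test. Rfc3 holds a pair of E2F sites within this stretch, and Slbp holds none.
Hells, chr19:38930890-38931039, plus strand: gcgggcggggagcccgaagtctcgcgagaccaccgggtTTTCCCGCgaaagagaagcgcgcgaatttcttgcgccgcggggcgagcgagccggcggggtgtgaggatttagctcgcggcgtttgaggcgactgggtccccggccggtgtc
Mcm3, chr1:20820263-20820412, minus strand: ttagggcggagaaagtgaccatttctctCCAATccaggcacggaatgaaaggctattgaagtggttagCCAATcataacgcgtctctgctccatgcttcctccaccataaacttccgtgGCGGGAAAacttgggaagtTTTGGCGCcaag
Rfc3, chr5:151651159-151651308, minus strand: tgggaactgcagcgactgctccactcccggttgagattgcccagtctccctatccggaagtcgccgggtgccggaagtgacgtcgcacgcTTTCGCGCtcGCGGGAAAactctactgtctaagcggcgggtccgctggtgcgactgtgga
Slbp, chr5:33652525-33652674, minus strand: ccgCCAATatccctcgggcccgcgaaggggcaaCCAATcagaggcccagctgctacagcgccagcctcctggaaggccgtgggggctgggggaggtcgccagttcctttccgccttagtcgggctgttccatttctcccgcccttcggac

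The test was edgeR's quasi-likelihood test of tdTom+ against tdTom− libraries, with the mouse as a block because both libraries of a pair come from the same animal, and a gene was called at an adjusted p (Benjamini-Hochberg, over all 15841 genes) under 0.01. Fold changes, given with their standard error (SE), are log2 values of tdTom+ over tdTom−, so that negative values are lower in tdTom+ cells. Of the 51 genes 44 were lower in tdTom+ cells and 0 higher, and the median gene stood at 75.5% of its tdTom− level. Of the 24 mitosis genes 23 were lower and 0 higher, with a median log2 fold change of −0.43, and of the 27 S phase genes 21 were lower and 0 higher, with a median of −0.36. Over all genes tested 28.9% were lower and 28.4% higher (57.2% in either direction), and the median was 0.0032. Without the mouse in the model 17 mitosis genes and 19 S phase genes were called lower, against 25.5% of all genes. Since each population is a bulk sample, fewer dividing cells and less of these transcripts per dividing cell cannot be told apart.

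**Figure D1:**
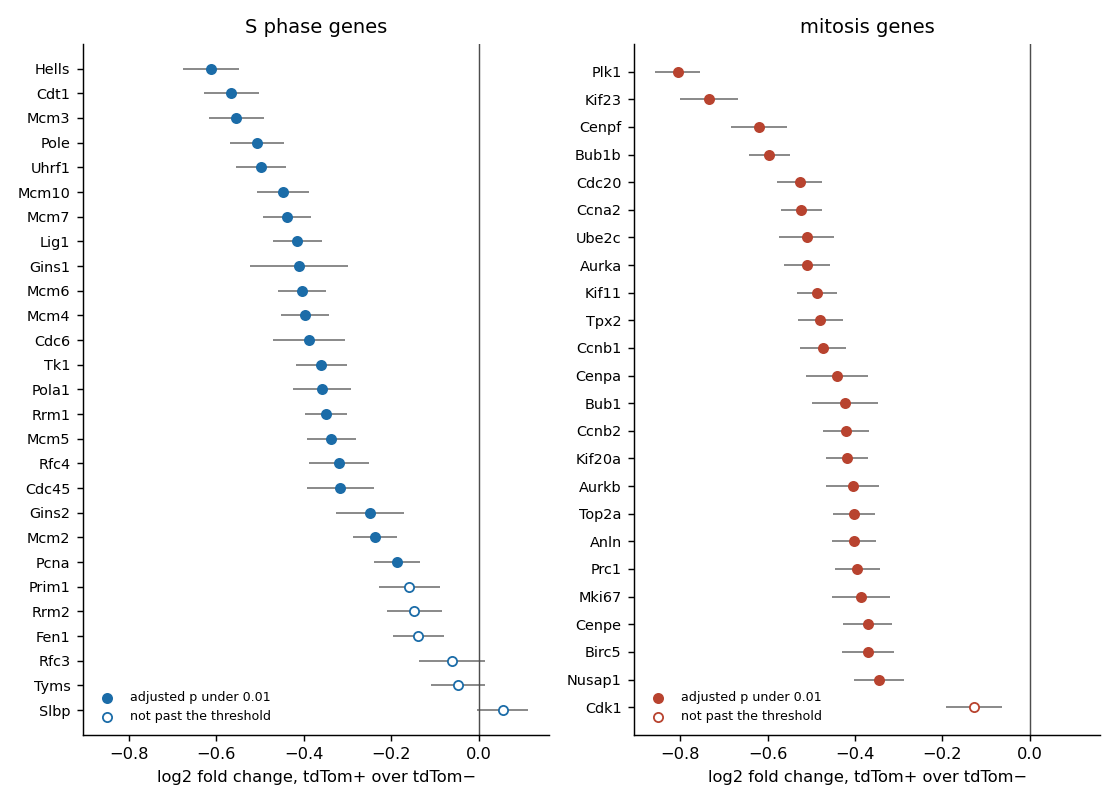
Log2 fold change of each of the 27 S phase genes (left) and 24 mitosis genes (right), tdTom+ over tdTom−, from edgeR with the mouse as a block. Points are the estimates and bars the standard error, filled points have an adjusted p under 0.01. Only Slbp lies above 0, and the lowest values are those of Plk1 at −0.81 and Kif23 at −0.73.

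In 0 of the 51 genes did the tdTom+ and tdTom− values of the 8 mice fail to overlap, whereas 15.3% of all genes tested were lower in tdTom+ cells with no overlap. Within mice, 41 of the 51 genes (22 mitosis and 19 S phase genes) were lower in tdTom+ cells in all 8 of 8 mice, and 0 were higher in all 8. Over all genes tested these shares were 26% and 25.4%.

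The licensing genes chosen here, which do not include the origin recognition complex, were lower throughout. Cdc6 and Cdt1 load the MCM helicase, whose 6 subunits are Mcm2 to Mcm7, onto origins, and all 8 of these 8 genes were lower in tdTom+ cells, in all 8 mice each. Cdt1 (ENSMUSG00000006585, chromosome 8, 122568015 to 122573128, plus strand) was at 33.9, 41.1 and 54.1 CPM (lowest, median and highest mouse) in tdTom− cells and at 23.3, 26.8 and 35.5 CPM in tdTom+ cells. The populations overlapped only between the lowest tdTom− and the highest tdTom+ libraries. A log2 fold change of −0.57 was found (SE 0.063, adjusted p = 3.55e-07, edgeR).

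Mcm3 (ENSMUSG00000041859, chromosome 1, 20802968 to 20820312, minus strand) had the lowest log2 fold change of the 6 MCM subunits. It was at 51.1, 73.7 and 95.6 CPM in tdTom− and at 35.7, 49.3 and 58.6 CPM in tdTom+ cells. The fold change was −0.55 on the log2 scale (SE 0.063, adjusted p = 4.67e-07, edgeR). The other subunits ran from Mcm7 at −0.44 through Mcm6 at −0.40, Mcm4 at −0.40 and Mcm5 at −0.34 to Mcm2 at −0.24, although the subunits work as 1 ring. Mcm2 did not pass without the mouse in the model (adjusted p = 0.0606, edgeR). Cdc6 was at −0.39, with 14.4 ± 1.46 CPM (SD, n = 8) without and 11.1 ± 1.99 CPM with the tdTom label.

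The 4 genes that turn the loaded ring into an active helicase were also lower. Mcm10, needed for that activation, was at −0.45 (adjusted p = 3.51e-06, edgeR), and Cdc45, which joins the helicase, was at −0.32 (adjusted p = 0.00155, edgeR). Gins1 and Gins2 encode subunits of the GINS complex and were at −0.41 and −0.25, with adjusted p = 0.00377 and 0.00974 (edgeR). Gins1 had the fewest counts of the 51 genes, from 56 to 353 per library. Of these 4 calls, 3 were lost when 1 mouse was left out. Gins2 lost its call when any 1 of mice 1, 2, 3, 4, 5, 7 or 8 was left out, Gins1 without mouse 1, 6 or 8, and Cdc45 without mouse 4 or without the mouse in the model.

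Of the 3 polymerase and primase genes, 2 were lower. Pole, the catalytic subunit of the leading strand polymerase, was at −0.51, from 32.7 ± 5.43 to 23.0 ± 3.94 CPM (SD, n = 8, adjusted p = 1.15e-06, edgeR). Pola1, the catalytic subunit of the polymerase that extends primers, was at −0.36 (adjusted p = 1.37e-04, edgeR). Prim1, which makes the RNA primer, had a log2 fold change of −0.16 that did not pass (adjusted p = 0.0563, edgeR), with lower values in 6 of 8 mice.

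Of the 5 genes of the clamp, its loader and the enzymes that join the lagging strand, 3 were lower. Lig1, the ligase that seals the lagging strand, was at −0.41 and Rfc4, a subunit of the clamp loader, at −0.32, with adjusted p = 3.62e-06 and 5.55e-04 (edgeR). Pcna (ENSMUSG00000027342, chromosome 2, 132249162 to 132253314, minus strand), the sliding clamp, was at 100.5, 116 and 127 CPM in tdTom− and at 91.5, 100.6 and 105 CPM in tdTom+ cells. The groups overlapped, and 7 of 8 mice had the lower value in tdTom+ cells. Its log2 fold change of −0.19 (SE 0.053, adjusted p = 0.0046, edgeR) lost its call when mouse 1, 2, 4, 6 or 8 was left out. Per length, Pcna had the highest level of the 51 genes in tdTom− cells, at 47.8 RPKM (reads per kilobase of exon per 1e6 counts), and Cdc6 the lowest, at 2.76 RPKM. Pcna is also uncertain because its copy Pcna-ps2 took 12165 counts over all libraries beside 37416 of Pcna, with means of 32.8 ± 1.10 CPM (SD, n = 8) in the tdTom+ and 37.1 ± 3.62 CPM in the tdTom− population, and reads that fit both could have been divided between them.

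Fen1, the nuclease that trims lagging strand fragments, did not pass, with a log2 fold change of −0.14 (adjusted p = 0.0473, edgeR). Rfc3, the other clamp loader subunit on the list, was at 21.4, 23.6 and 26.4 CPM in tdTom− and at 18.5, 22.8 and 25.8 CPM in tdTom+ cells. It was the higher in tdTom+ cells in 5 of 8 mice and the lower in 3. The edgeR estimate was −0.060 (SE 0.075, adjusted p = 0.492, edgeR), and 0.028 without mouse 4, whose tdTom+ library had the lowest value.

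Among the 4 deoxynucleotide genes, the 2 with the larger differences were Tk1, thymidine kinase of the salvage route, at −0.36, and Rrm1, the large subunit of ribonucleotide reductase, at −0.35 (adjusted p = 3.60e-05 and 5.08e-06, edgeR). Rrm2, the small subunit of the same enzyme, had −0.15 and did not pass (adjusted p = 0.0482, edgeR), with lower values in 6 of 8 mice. Tyms, thymidylate synthase, was at 41.8, 49.6 and 56.5 CPM in tdTom− and at 42.1, 47.6 and 52.0 CPM in tdTom+ cells. The populations covered almost the same range, and 5 of 8 mice had the lower value in tdTom+ cells. For Tyms the log2 fold change was −0.048 (SE 0.061, adjusted p = 0.508, edgeR).

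The 3 genes that act on chromatin and histone messages held both ends of the S phase group. Hells (ENSMUSG00000025001, chromosome 19, 38930915 to 38971051, plus strand), a chromatin remodeller of dividing cells, was at 35.7, 46.3 and 53.3 CPM in tdTom− and at 19.9, 30.9 and 39.6 CPM in tdTom+ cells. It was lower in 8 of 8 mice, with the lowest value of both populations in mouse 2. Its log2 fold change of −0.61 (SE 0.063, adjusted p = 1.53e-07, edgeR) was the largest difference of the 27 S phase genes. Uhrf1, which recruits the maintenance DNA methyltransferase to replicated DNA, was at −0.50, from 90.6 ± 14.3 to 64.2 ± 10.6 CPM (SD, n = 8).

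Slbp (ENSMUSG00000004642, chromosome 5, 33634952 to 33652574, minus strand), which binds the stem loop of histone messages, was at 46.8, 52.4 and 59.1 CPM in tdTom− and at 45.5, 55.4 and 60.4 CPM in tdTom+ cells. It was lower in 4 mice and higher in the other 4. With a log2 fold change of 0.055 (SE 0.058, adjusted p = 0.417, edgeR), it was the only 1 of the 51 genes above 0.

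**Figure D2:**
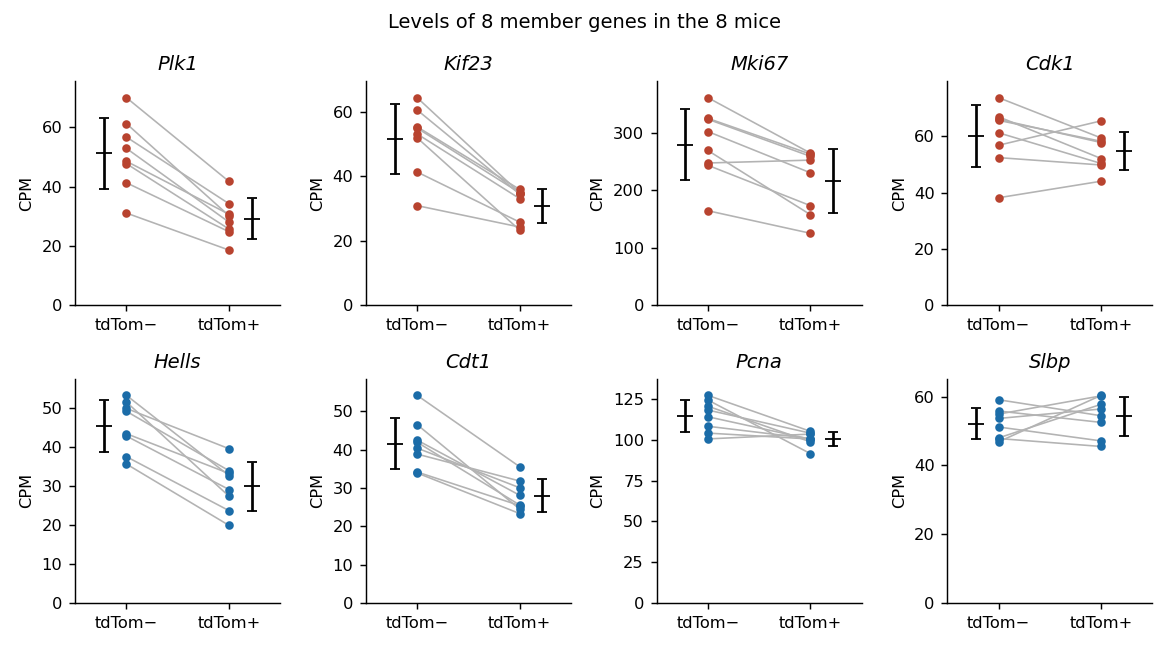
Levels in CPM of 4 mitosis genes (top, red) and 4 S phase genes (bottom, blue) in the 8 mice, with a grey line joining the tdTom− and tdTom+ libraries of a mouse. Black marks beside the points give the mean and SD. Every line falls for Plk1, Kif23, Hells and Cdt1, 1 line each rises for Mki67 and Pcna, 2 rise for Cdk1 and 4 for Slbp.

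Of the 4 cyclin and Cdk genes of mitosis, the 3 cyclins were lower and their kinase was not called. Ccna2, cyclin A2, was at −0.52, from 74.9, 128 and 153 CPM to 55.2, 93.1 and 105 CPM (lowest, median and highest mouse, adjusted p = 2.78e-08, edgeR). Ccnb1 and Ccnb2, the B cyclins that drive entry into mitosis, were at −0.47 and −0.42. For Ccnb1 a copy, Ccnb1-ps, took 2184 counts beside 12393 and had a log2 fold change of −0.42 itself, so the level of Ccnb1 is uncertain to that extent.

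Cdk1 (ENSMUSG00000019942, chromosome 10, 69336635 to 69352938, minus strand), the kinase that these cyclins activate, was at 38.2, 63.5 and 73.8 CPM in tdTom− and at 44.1, 55.0 and 65.6 CPM in tdTom+ cells. It was lower in tdTom+ cells of 6 mice and higher in mice 2 and 3. The overall log2 fold change of Cdk1 was −0.13 (SE 0.064, adjusted p = 0.0877, edgeR). In mice 1 to 3 alone it was 0.11 (adjusted p = 0.335) and in mice 5 to 8 alone −0.24 (adjusted p = 0.00133, both edgeR), and the difference between these series of mice was not tested.

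The 6 mitotic kinase and checkpoint genes were all lower, in 8 of 8 mice each. Plk1 (ENSMUSG00000030867, chromosome 7, 122159437 to 122169875, plus strand), the polo-like kinase of mitotic entry and exit, was at 31.1, 50.7 and 70.0 CPM in tdTom− and at 18.6, 29.1 and 41.8 CPM in tdTom+ cells. Mouse 2 was lowest and mouse 4 highest in both populations, and within mice the log2 difference ran from −1.02 in mouse 7 to −0.66 in mouse 5. At −0.81 on the log2 scale (SE 0.051, adjusted p = 1.77e-10, edgeR), Plk1 had the largest difference of the 51 genes.

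Bub1b, a kinetochore component of the spindle checkpoint, was at −0.60 (adjusted p = 4.55e-09, edgeR), and Bub1, a checkpoint kinase, at −0.42. Aurka, the kinase of spindle poles, was at −0.51 and Aurkb, the kinase of the chromosomal passenger complex, at −0.41. Birc5, survivin, a partner of Aurkb in that complex, was at 30.8, 45.7 and 55.0 CPM in tdTom− and at 28.6, 34.6 and 41.2 CPM in tdTom+ cells, with a log2 fold change of −0.37 (SE 0.059, adjusted p = 2.85e-05, edgeR).

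Cdc20, the activator of the anaphase-promoting complex, and Ube2c, a ubiquitin-conjugating enzyme of that complex, were at −0.53 and −0.51 (adjusted p = 6.68e-08 and 1.14e-06, edgeR). The 3 centromere and kinetochore genes were lower as well. Cenpf, a large kinetochore protein, was at 36.6, 53.3 and 66.8 CPM in tdTom− and at 19.96, 40.3 and 42.9 CPM in tdTom+ cells. Only the tdTom− library of mouse 2 lay within the tdTom+ range. The log2 difference was −0.62 (SE 0.064, adjusted p = 1.34e-07, edgeR). Cenpa, the histone H3 variant of centromeres, was at −0.44 and Cenpe, a kinetochore motor, at −0.37.

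Spindle and cytokinesis genes were lower in 7 of 7 cases. Kif23 (ENSMUSG00000032254, chromosome 9, 61917280 to 61946799, minus strand), a motor of the central spindle, was at 30.9, 54.0 and 64.4 CPM in tdTom− and at 23.3, 33.7 and 35.9 CPM in tdTom+ cells. Of the tdTom− libraries, the lowest was that of mouse 2, and the others lay above every tdTom+ value. Kif23 had a log2 fold change of −0.73 (SE 0.067, adjusted p = 3.03e-08, edgeR). Kif11, which pushes spindle poles apart, was at −0.49, Tpx2, an activator of Aurka on the spindle, at −0.48, Kif20a, another central spindle motor, at −0.42, Anln, the anillin of the cleavage furrow, at −0.40, and Prc1, which bundles central spindle microtubules, at −0.39. Nusap1, which binds spindle microtubules, had the smallest difference of the mitosis genes called, at 28.3, 45.7 and 58.6 CPM in tdTom− and 26.2, 37.0 and 42.2 CPM in tdTom+ cells and a log2 fold change of −0.34 (SE 0.057, adjusted p = 4.24e-05, edgeR).

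The common proliferation markers Mki67 and Top2a had the highest mean CPM of the 51 genes, a scale that does not allow for the length of a message. Mki67 (ENSMUSG00000031004, chromosome 7, 135689788 to 135716379, minus strand), which coats mitotic chromosomes, was at 164, 285 and 361 CPM in tdTom− and at 125, 241 and 264 CPM in tdTom+ cells. It was lower in 7 of 8 mice and slightly higher in mouse 6. Across the 8 mice the log2 fold change was −0.39 (SE 0.066, adjusted p = 6.03e-05, edgeR). Top2a, the topoisomerase that untangles sister chromatids, was at 162, 257 and 307 CPM in tdTom− and at 123, 206 and 222 CPM in tdTom+ cells. It was lower in 8 of 8 mice, with a log2 fold change of −0.40 (SE 0.048, adjusted p = 9.34e-07, edgeR).

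Neither marker passed without the mouse in the model, where the adjusted p was 0.0506 for Mki67 and 0.0124 for Top2a (edgeR). The same was true of Cenpe, Kif20a, Nusap1 and Prc1 among the mitosis genes and of Mcm2 and Cdc45 among the S phase genes. The fold changes themselves moved little, from −0.39 to −0.37 for Mki67, and stood at −0.40 in both fits for Top2a.

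**Figure D3:**
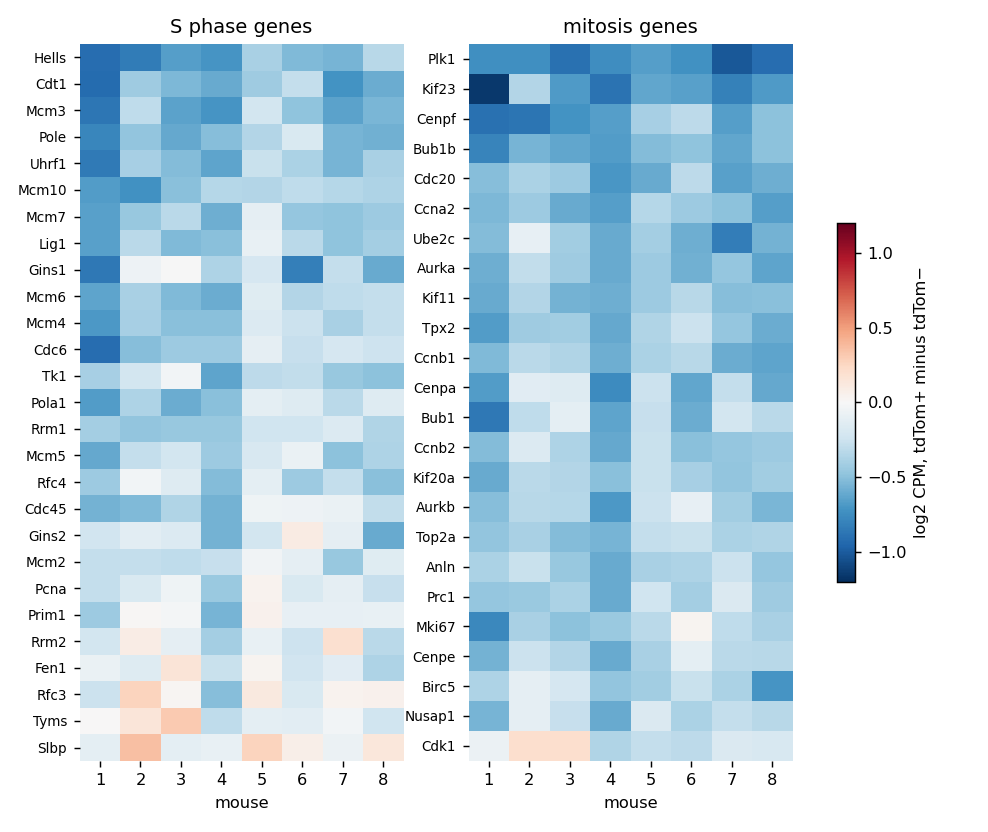
Difference in log2 CPM between tdTom+ and tdTom− cells (color scale) for each S phase gene (left) and mitosis gene (right) in each of the 8 mice, genes ordered by fold change. Blue is lower in tdTom+ cells. The mitosis panel is blue almost throughout, with 23 or 24 of 24 genes lower in each mouse, while 22 to 27 of the 27 S phase genes are lower and the bottom rows mix both colors.

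Both groups were lower in tdTom+ cells of every mouse. The median log2 difference over the 24 mitosis genes was −0.56, −0.33, −0.42, −0.61, −0.37, −0.38, −0.46 and −0.49 in mice 1 to 8. For the 27 S phase genes it was −0.61, −0.31, −0.33, −0.50, −0.12, −0.25, −0.31 and −0.36. The SD of these medians over the 8 mice was 0.097 for mitosis and 0.15 for S phase genes. All genes tested had medians from −0.030 to 0.031 in the same mice. The mitosis median was the lower in 7 of 8 mice, with differences of −0.25 to −0.023, and in mouse 1 it was higher by 0.054.

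The 2 groups thus kept the same order in every mouse except mouse 1, and the gap between them varied. In mice 1 to 3 alone the median log2 fold change was −0.43 for mitosis and −0.44 for S phase genes, and 19 and 15 of them were called lower, against 19.7% of all genes in these mice. In mice 5 to 8 alone the medians were −0.43 and −0.27, and 24 and 15 were called lower, against 25.2%. The difference between the S phase and mitosis genes was not tested, since the genes were chosen by name with earlier results known and are not replicates.

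The mean log2 CPM of the S phase genes ran from 5.15 in mouse 2 to 5.70 in mouse 4 in tdTom− cells, and from 4.89 in mouse 2 to 5.25 in mouse 8 in tdTom+ cells. For the mitosis genes it ran from 5.22 in mouse 2 to 6.19 in mouse 4 in tdTom− cells, and from 4.90 in mouse 2 to 5.66 in mouse 6 in tdTom+ cells. The lowest tdTom− mouse was thus below the highest tdTom+ mice, which is the overlap seen gene by gene. Mouse 4, highest in tdTom− cells, also had the largest tdTom− library. With every library thinned to the smallest, 23 mitosis and 21 S phase genes were called lower, with medians of −0.42 and −0.34. Thinning evens out depth only and leaves the levels of mouse 4 in the fit. Without mouse 4, 23 mitosis and 18 S phase genes were called lower, with medians of −0.38 and −0.31. In that fit 4289 of all genes were called lower, against 4574 with all 8 mice.

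**Figure D4:**
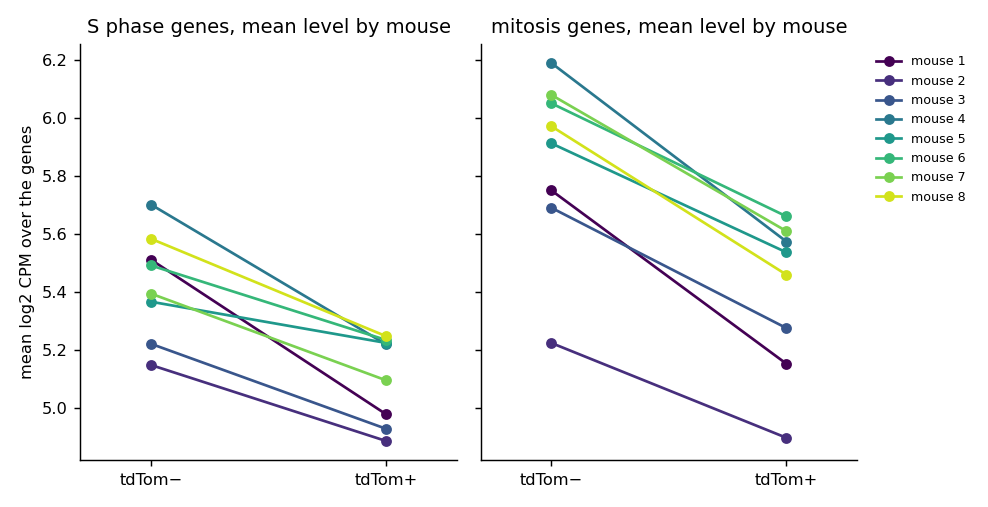
Mean log2 CPM over the 27 S phase genes (left) and the 24 mitosis genes (right) in the tdTom− and tdTom+ libraries of each mouse, with 1 line per mouse. All 8 lines fall in both panels, and mouse 2 is lowest in each population.

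Other genes of the same processes, 161 in 6 lists, were read in the same fit. Of these 97 were lower in tdTom+ cells and 9 higher (28.9% and 28.4% of all genes tested), with a median log2 fold change of −0.29. Without the mouse in the model 62 were lower, beside 25.5% of all genes, and 9 higher. In mice 1 to 3 alone 52 were lower, beside 19.7% of all genes, and 7 higher.

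Among 14 genes of licensing and origin firing, 5 were lower and 1 higher, with a median of −0.083. The share called lower, 35.7%, was near the 28.9% of all genes tested. Cdc7, the kinase that fires licensed origins, was at −0.58 and Ticrr, which loads Cdc45, at −0.56, whereas Orc5, a subunit of the origin recognition complex, was at 0.24 (higher in 7 of 8 mice). Of 27 genes of the replication fork 16 were lower and 2 higher, with a median of −0.30. Rfc2, a clamp loader subunit, was at −0.56 and Pola2, the second subunit of the primer polymerase, at −0.53, both without overlap of the 2 populations. Rfc1, the large subunit of the same clamp loader, was at 0.53, with means of 52.7 ± 6.73 CPM (SD, n = 8) without and 76.0 ± 7.26 CPM with the tdTom label. Pole4, a small subunit of the polymerase whose catalytic subunit is Pole, was at 0.48. Subunits of 1 complex were thus called in opposite directions for the clamp loader and for this polymerase.

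Of 19 genes of nucleotide supply 11 were lower and 3 higher, with a median of −0.19. Shmt1 and Mthfd1, folate enzymes of the cytosol, were at −0.70 and −0.64. Mthfd2, a folate enzyme of mitochondria, was at 0.93, from 12.4 ± 2.90 to 23.4 ± 3.92 CPM (SD, n = 8, adjusted p = 7.15e-09, edgeR), and Nme1, a nucleoside diphosphate kinase, at 0.55. Both were higher in 8 of 8 mice with no overlap of the populations. Of the 15841 genes tested, 2406 were higher in tdTom+ cells with no overlap (30.5% had no overlap in either direction).

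Of 34 kinetochore and checkpoint genes 16 were lower and 2 higher, with a median of −0.28. Ska3, of the complex that holds microtubules at the kinetochore, and Cenpt, which links centromeric DNA to it, were both at −0.54, and Zw10 and Cenpq were at 0.28 and 0.41. Of 45 genes of the spindle, chromosomes and cytokinesis 36 were lower and 1 higher, with a median of −0.39. Lmnb1, lamin B1 of the nuclear envelope, was at −0.70, Nek2, a centrosome kinase, at −0.65, and Kpna2, a nuclear import receptor, at 0.46.

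Of 22 transcriptional regulators of these waves, 13 were lower and 0 higher, with a median of −0.24. Mybl2, which encodes B-MYB, had the lowest value at −0.79, falling from 23.1 ± 4.16 CPM without to 13.3 ± 2.48 CPM with the tdTom label (SD, n = 8, adjusted p = 6.85e-09, edgeR). Foxm1 was at −0.45 and Lin54, the MuvB subunit that contacts the CHR, at −0.26. Of the E2F genes, E2f3 was at −0.70, E2f5 at −0.44, E2f7 at −0.42, E2f8 at −0.39, E2f2 at −0.29 and E2f4 at −0.28, a mixture of activators and repressors. Their dimer partners Tfdp2 and Tfdp1 were at −0.43 and −0.22, and the pocket proteins Rbl1 and Rb1, which hold E2F in check, at −0.38 and −0.21.

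**Figure D5:**
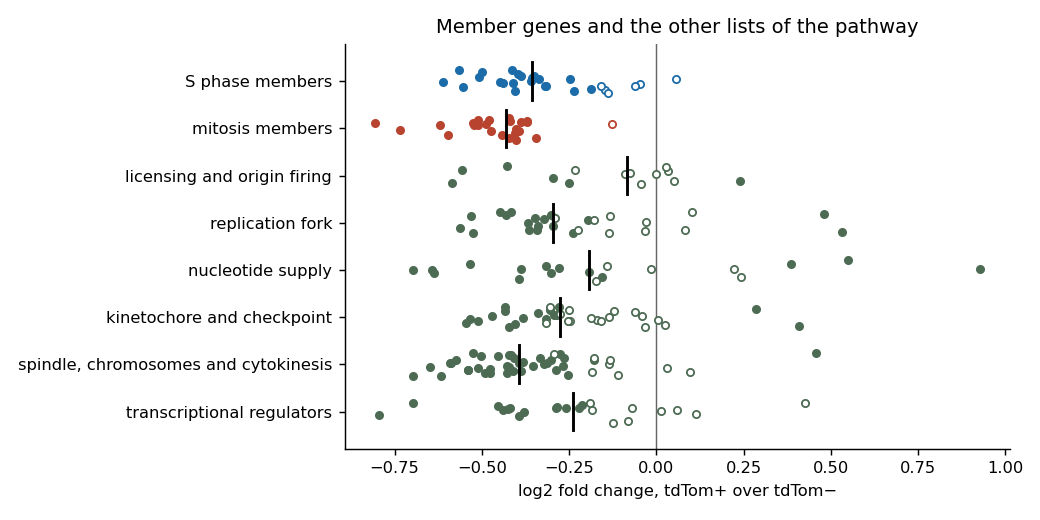
Log2 fold change, tdTom+ over tdTom−, of the S phase genes (blue), the mitosis genes (red) and the genes of 6 further lists (green), 1 point per gene, filled where the adjusted p was under 0.01, with a black bar at each median. Vertical scatter within a row has no meaning. Medians run from −0.43 for the mitosis genes to −0.083 for licensing and origin firing, and the rightmost point is Mthfd2 at 0.93.

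Markers of cell types differed between the populations, with goblet and absorptive markers furthest apart. Of 6 general epithelial markers 5 were lower and 1 higher with the tdTom label. Their median log2 fold change was −0.52, beside −0.40 over the 51 genes, and their summed level was 5949 to 6967 CPM in tdTom+ and 9106 to 11770 CPM in tdTom− libraries. Epcam, used for the sort, was at −0.20, Krt8 and Krt19 at −1.07 and −1.03, and Krt18 at 0.68. The summed level of 8 goblet cell markers was 51180 to 106900 CPM in tdTom+ and 2263 to 8807 CPM in tdTom− libraries, and that of 7 absorptive markers was 328 to 640 CPM against 5740 to 11350 CPM. Of 7 stem cell markers 4 were lower and 3 higher, with summed levels of 569 to 658 and 432 to 642 CPM, and these ranges overlapped. Lgr5, the marker of crypt base stem cells, was at −0.70, Ascl2, a stem cell transcription factor, at −0.76, Smoc2 at −0.37 and Axin2, a Wnt target, at −0.30, each with overlap of the populations. Sox9, a transcription factor of the crypt base, was at 0.63, Rgmb at 0.53 and Lrig1, a receptor inhibitor of stem cells, at 0.44, each in 8 of 8 mice and without overlap. All 6 enteroendocrine markers and 3 of 4 tested tuft cell markers were lower. Immune markers were near the limit of detection, with 2 of 12 tested, both lower, and summed levels of 2.02 to 5.05 CPM in tdTom+ and 4.72 to 26.6 CPM in tdTom− libraries. No T or B cell marker exceeded 0.216 CPM. Of 6 markers of stroma and endothelium 2 were tested, both lower, at 3.65 to 5.59 and 6.04 to 8.26 CPM in sum. How much the mixture of cell types contributed to the differences in the S phase and mitosis genes was not tested.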

How the data were processed

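RNA sequencing of 16 sorted colon samples was analysed, a tdTom+ and a tdTom− sample from each of 8 mice. Libraries of stranded mRNA were read single-end, and the authors mapped them to GRCm38.p3 by TopHat2 2.1.1 and deposited counts per gene, without normalization, from featureCounts (1.5.0-p1 per the file headers, Subread 1.5.2 per the submitters' processing notes), on exons, from primary alignments and the reverse strand. Reads shared with near-identical copies could be lost or divided.

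Symbols came from GENCODE M21 for 44585 of 45513 genes, of which 27559 had at least 1 count. Tests used edgeR 4.0.16 (R 4.3.3), by its filterByExpr, TMM, glmQLFit and glmQLFTest, with the mouse as a block. Pairing rests on the shared mouse number of both samples of an animal. Their deviations from the group means correlated at 0.223 to 0.408 within a mouse and at most at 0.168 between mice. Standard errors were derived from the fold change and the F statistic. CPM used TMM library sizes, with a prior count of 2 for log2 values, and reads per kilobase used the exon length in the files. All 56 pairs of samples of a group differed by more than sampling noise (chi-square per degree of freedom of 11.5 or more). The fits were tested on simulated counts with 200 changed genes, far fewer than were called here. That test does not measure their error in these data.

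The genes and lists were chosen with earlier results of these data known, and their counts are descriptions. Values in each group were given for Mki67, Pcna, Top2a and the 3 largest and 3 smallest differences among S phase and among mitosis genes. They were also given for Cdc6, Pole, Uhrf1 and Ccna2, which this rule does not cover. From each further list the 2 lowest and 2 highest called genes were named, with every called regulator. Promoter windows came from RefSeq (GRCm38.p6). Alternatives were the fit without the mouse, a GC and length correction by splines (5 degrees of freedom), DESeq2 1.42.0, limma-voom (limma 3.58.1), other normalizations, filters and thresholds, each mouse left out, mice 1 to 3 or 5 to 8 only, and thinned libraries. The 51 genes had 56 to 18562 counts per library, and genes at the low end have the wider counting error.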

Additional observations from a re-analysis of the deposited data

Results flagged for a closer look

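Over 108 groups of 8 samples (the log2 CPM of the 51 genes, summary levels and total counts in each population), 2 held a sample that stood away from the rest. For independent groups chance gives about 1 in 20, or 5.4. These groups share the same libraries and are not independent, so that number does not tell whether the 2 arose by chance. For Pcna the tdTom+ library of mouse 4 lay below the rest, at 6.517 log2 CPM against 6.63 to 6.72 in the other 7 mice. The total count of the tdTom− library of mouse 4 was 45791503, against 18318172 to 20668605 in the other 7 mice.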

How the results depend on the processing

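With 21 alternatives, the counts of S phase and mitosis genes called lower ran from 15 to 23 and from 17 to 24, against 21 and 23 as reported, and 0 were called higher in any of them. The medians ran from −0.44 to −0.27 for S phase and from −0.48 to −0.38 for mitosis genes. Of the 44 genes called, 26 passed in all alternatives and 0 changed direction. With each mouse left out in turn, 18 to 20 S phase and 23 to 23 mitosis genes were lower.

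The replicate block moved the calls of 8 of the 51 genes. Without it the genes of the other pathway lists called lower were 62 in place of 97 (25.5% and 28.9% of all genes). With mice 1 to 3 only they were 52 (19.7% of all genes). Direction changed for 3 genes that were not called: Tyms, at 0.010 without mouse 4 and 0.16 in mice 1 to 3; Rfc3, at 0.028 without mouse 4, 0.017 in mice 1 to 3 and 0.0049 in mice 5 to 8; and Cdk1, at 0.11 in mice 1 to 3. With mice left out in turn Tyms ran from −0.098 to 0.010 and Rfc3 from −0.099 to 0.028. The causes were not tested.

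The block with a GC and length correction ended the calls of Pcna and Gins2, and DESeq2 that of Gins2. Searching only the gene strand lowered the share of promoter windows with a CCAAT box to 61.9% for mitosis and 35.7% for S phase genes (21.1% of all windows), and shorter windows left 0 mitosis windows with an E2F site. The differences of Tyms, Rfc3 and Slbp were no larger than their standard errors, and the smallest difference that 8 mice could detect was not computed.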
